A study of Mus musculus with 4 samples.

Results

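Single cells from the ascites of tumor-bearing mice were profiled by droplet RNA sequencing, and the cells described here are B cells with much Ighm and no detected Ighd RNA. Ighm encodes the heavy chain of IgM and Ighd that of IgD, and a cell was a member if it held at least 3 UMIs (unique molecules counted per gene) over Cd79a, Cd79b and Ms4a1, no UMI of C1qa, C1qb or Cd3e, no UMI of Ighd and at least 3 UMIs of Ighm. The members were thus chosen by the measured counts of these 8 genes, whose levels are given below as a description. Of 98560 barcodes that held 500 to 4800 genes and no more than 15% mitochondrial UMIs, 3794 passed as B cells and 1074 of these were members. They were set beside 842 B cells of the same libraries with at least 2 UMIs of Ighd, called Ighd-positive below. The other B cells fell in neither class.

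All 4 libraries came from ascites of female FVB mice, labelled as taken 6 weeks after injection of tumor cells. A supplementary figure legend of the paper names another day of collection, without saying from what it counts. According to the methods the mice carried Br-Luc tumors, from a mouse ovarian cancer line with the genotype p53-/-, brca1-/-, myc and Akt-myr, placed in the peritoneal cavity, and received siRNA-LNA (small interfering RNA with locked nucleic acids) in jetPEI, a polymer carrier. The group siCont received a control siRNA-LNA and the group siFXR1-LNA one against Fxr1, with 2 libraries per group, each pooled from 3 mice, so the spread between libraries does not show the spread between animals. Values below are given in the order siCont replicates 1 and 2, then siFXR1-LNA replicates 1 and 2, unless stated otherwise.

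B-1 cells are a self-renewing class of B cells that are common in the peritoneal and pleural cavities and secrete natural IgM without prior immunization. They carry much surface IgM and little IgD, while follicular B cells recirculate through lymph nodes and spleen and carry both. Many B-1 cells use a few germline-encoded antigen receptors, of which the heavy chain gene Ighv11-2 joined with the light chain gene Igkv14-126 is a textbook example that binds phosphatidylcholine.

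The V genes of the leading receptor pairs are shown because the first pair was found in members of all 4 libraries and the second was the next most frequent. The last 240 coding bases of each germline gene are given 5′ to 3′ from GENCODE vM21 on GRCm38, the build that equals mm10. These are reference sequences of C57BL/6, not reads of the FVB mice. Capitals mark the codons for Tyr-Tyr-Cys (Tyr-Phe-Cys in Ighv11-2) and the bases after them, where the third complementarity-determining region starts. Ighv11-2 lies on the minus strand at chr12:114048241-114048480, Igkv14-126 on the plus strand at chr6:67896403-67896642, Ighv1-55 on the minus strand at chr12:115208095-115208334 and Igkv12-89 on the minus strand at chr6:68834846-68835085. Each stretch is part of the second exon of a 2-exon V gene.
Ighv11-2: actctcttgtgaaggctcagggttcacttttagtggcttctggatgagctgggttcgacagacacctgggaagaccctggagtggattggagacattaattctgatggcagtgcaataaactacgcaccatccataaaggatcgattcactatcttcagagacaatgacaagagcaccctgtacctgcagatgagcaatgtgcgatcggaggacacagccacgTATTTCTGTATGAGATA
Igkv14-126: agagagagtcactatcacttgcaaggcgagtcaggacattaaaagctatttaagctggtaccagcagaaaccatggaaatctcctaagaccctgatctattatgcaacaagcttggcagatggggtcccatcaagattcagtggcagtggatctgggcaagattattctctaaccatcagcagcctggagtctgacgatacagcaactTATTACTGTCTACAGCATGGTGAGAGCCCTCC
Ighv1-55: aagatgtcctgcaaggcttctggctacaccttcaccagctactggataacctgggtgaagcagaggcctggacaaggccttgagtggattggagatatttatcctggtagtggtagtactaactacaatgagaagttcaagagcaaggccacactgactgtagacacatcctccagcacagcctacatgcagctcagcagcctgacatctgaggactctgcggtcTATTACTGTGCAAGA
Igkv12-89: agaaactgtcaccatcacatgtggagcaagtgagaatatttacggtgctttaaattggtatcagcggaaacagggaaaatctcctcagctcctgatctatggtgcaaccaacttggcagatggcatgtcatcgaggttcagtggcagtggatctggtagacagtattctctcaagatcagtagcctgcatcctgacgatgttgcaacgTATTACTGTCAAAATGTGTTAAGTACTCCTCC

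The libraries differed as a whole. Their totals ran from 78179267 to 113606837 UMIs, kept barcodes from 9090 to 53842, and hemoglobin took 9.12% to 41.1% of all UMIs, more in both siCont libraries. For this reason levels are given as CPM, the UMIs of a gene scaled to a total of 1000000 UMIs other than hemoglobin, summed over the cells of a class in a library. Fxr1, the target of the siRNA, had no lower level in the libraries of its siRNA, with 77.1, 62.4, 116 and 79.2 CPM over all kept barcodes and 51.9, 53.8, 82.0 and 73.9 CPM in the members, so the groups are called by their labels, the libraries labelled siCont and those labelled siFXR1-LNA. Neither set is tumor cells alone, in which the paper reports lower Fxr1 and which were not examined here. No barcode was shared between libraries among the members.

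The members numbered 475, 467, 89 and 43, at a median depth of 3136, 4055, 2589 and 3067 UMIs per cell. Ighd-positive cells numbered 194, 520, 63 and 65, at a median of 2139, 2407.5, 2313 and 2360 UMIs, so the members were the deeper class in every library. Median Ighm was 4, 8, 5 and 5 UMIs per member, and siCont replicate 2 held the highest single cell, with 1177 UMIs. The threshold cut through a continuous range. Just inside it stood 147, 63, 18 and 16 members with exactly 3 UMIs of Ighm, and just outside it 144, 88, 25 and 16 Ighd-negative B cells with 2 UMIs. A further 139, 263, 35 and 22 B cells had at least 3 UMIs of Ighm but 1 of Ighd.

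**Figure D1:**
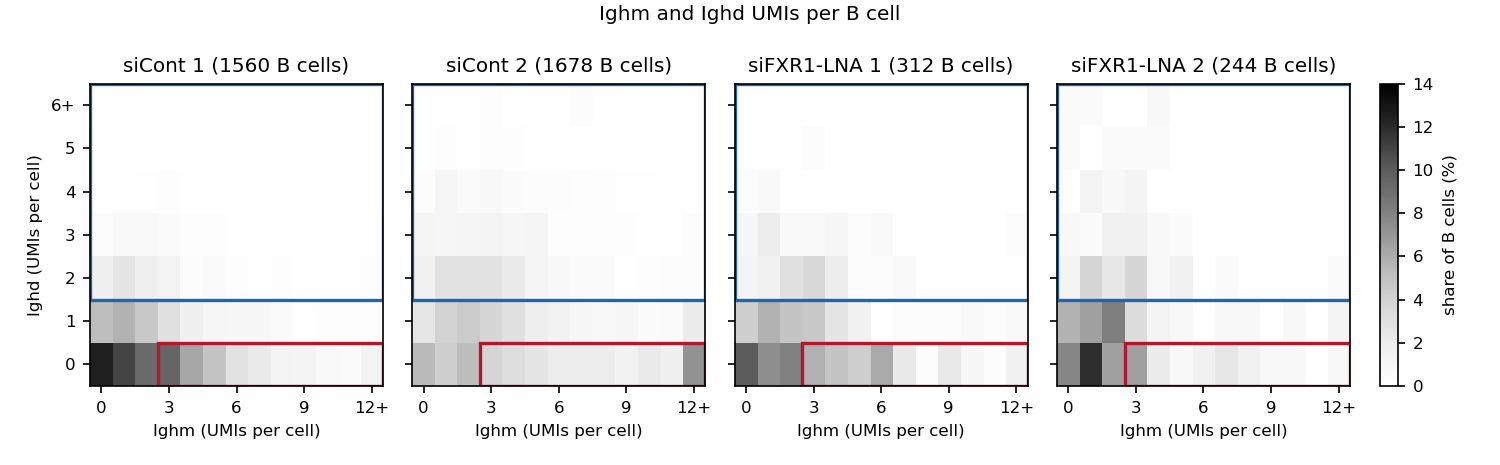
Share of B cells (grey scale, %) at each number of Ighm UMIs (horizontal) and Ighd UMIs (vertical) per cell, 1 panel per library, with the last bin holding all higher values. The red frame encloses the 475, 467, 89 and 43 members and the blue frame the 194, 520, 63 and 65 Ighd-positive cells, and no empty zone separates them.

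The proposed name of B-1-like cells was checked against markers. Mzb1, a chaperone that assists IgM assembly, had a UMI in 74.9%, 84.8%, 58.4% and 72.1% of members, against 40.7%, 56.2%, 33.3% and 47.7% of Ighd-positive cells. Ly6d, a surface protein of the B lineage, was found in 92.8%, 92.5%, 60.7% and 81.4% of members and in 82.0%, 78.1%, 50.8% and 69.2% of Ighd-positive cells. Macrophage-type barcodes (at least 3 UMIs over C1qa and C1qb and none of the B cell genes), which should lack both, had a UMI of Mzb1 in at most 0.781% and of Ly6d in at most 1.95%, at median depths of 4041 to 8285 UMIs. Bhlhe41, a transcription factor that B-1 cells need for self-renewal, was in 12.6%, 19.7%, 6.74% and 9.30% of members. It was in 1.55%, 2.69%, 4.76% and 0% of Ighd-positive cells, where 0 of 65 cells allows a share of up to 4.62%, but also in 3.78%, 3.47%, 11.3% and 11.6% of macrophage-type barcodes at their greater depth. In the libraries labelled siFXR1-LNA its share in members was thus below that of macrophage-type barcodes and above that of Ighd-positive cells, with 6 and 4 members holding a UMI. Cd5, the surface marker that defines the B-1a subset, had a UMI in 3.16%, 4.50%, 0% and 0% of members and in 1.55%, 0.769%, 0% and 0% of Ighd-positive cells, and the zeros of 89 and 43 members allow shares of up to 3.37% and 6.98%. In macrophage-type barcodes the share was 1.97%, 1.88%, 0.336% and 1.02%. These markers were proposed together with the class and are a description, not a test of it.

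Members were 30.4%, 27.8%, 28.5% and 17.6% of the B cells, with exact binomial 95% intervals of 28.2 to 32.8, 25.7 to 30.0, 23.6 to 33.9 and 13.1 to 23.0. These intervals cover counting error only. The share was 29.1% ± 1.85 (SD, n = 2) in the libraries labelled siCont and 23.1% ± 7.71 (SD, n = 2) in those labelled siFXR1-LNA, a difference of -6.07 percentage points that was within the spread between libraries (two-sided exact permutation test, p = 0.667, where the smallest p that 2 against 2 libraries allow is 0.333). Replicate 2 labelled siFXR1-LNA decided the size of that difference, which was -0.614 points without it. With at least 1000 genes per cell the shares were 42.5%, 37.7%, 33.2% and 19.6%, so the difference was -13.7 points. Of all kept barcodes the members made up 2.36%, 5.14%, 0.165% and 0.277%, and here the groups did not overlap (two-sided exact permutation test, p = 0.333, the smallest possible). The B cells as a whole were likewise fewer in libraries with the label siFXR1-LNA, at 312 and 244 against 1560 and 1678.

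**Figure D2:**
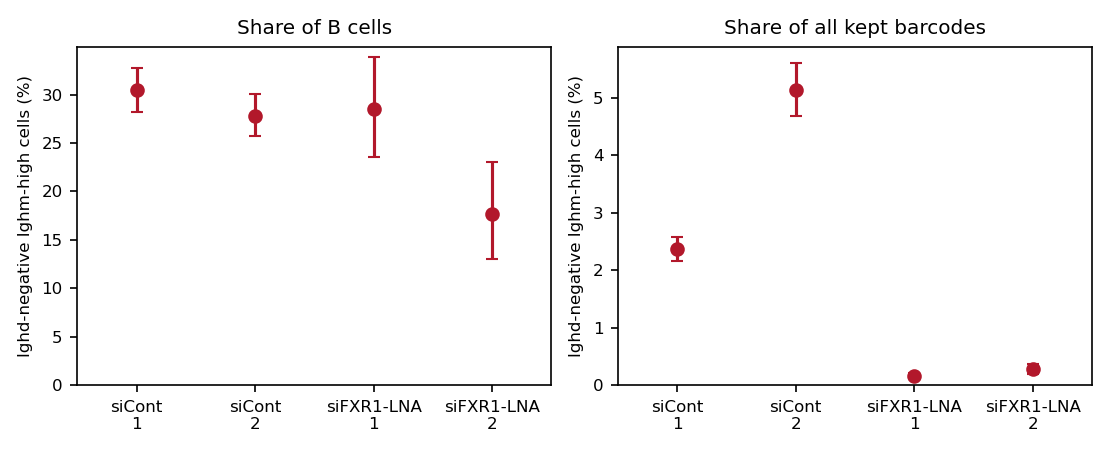
Members as a share (%) of B cells, left, and of all kept barcodes, right, per library, with exact binomial 95% intervals. Shares of B cells run from 17.6% to 30.4% with the groups overlapping, while shares of all barcodes are 2.36% and 5.14% in the libraries labelled siCont and 0.165% and 0.277% in those labelled siFXR1-LNA.

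The receptor genes of the members were then examined. A heavy chain V gene was assigned to a cell when it had at least 2 V UMIs and more than 50% of them on 1 gene, which gave a gene to 72.8%, 83.1%, 25.8% and 81.4% of members. Only 23 of 89 members of siFXR1-LNA replicate 1 received one, so its shares are the least certain. Over the 4 libraries together, Ighv11-2, whose sequence is shown above, was the most frequent heavy chain gene among members. Ighv11-2 was assigned in 36 of 346, 50 of 388, 5 of 23 and 4 of 35 of them, which is 10.4%, 12.9%, 21.7% and 11.4%. In siCont replicate 1 Ighv1-55 was ahead of it, with 37 cells, and in siFXR1-LNA replicate 2 Ighv7-3 was level with it, with 4. Among Ighd-positive cells Ighv11-2 was assigned in 6 of 84, 9 of 316, 0 of 5 and 0 of 39, which is 7.14%, 2.85%, 0% and 0%, and the zeros allow shares of up to 60% and 7.69%. The share was higher in members in 4 of 4 libraries, by 11.6 percentage points ± 7.63 (SD of the differences, n = 4), and the two-sided exact permutation test over libraries gave p = 0.125, the smallest it can give. In siCont replicate 1 the intervals of the classes overlapped, at 7.39 to 14.1 against 2.67 to 14.9.

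The light chain went with the heavy chain. Of Ighv11-2 members with a light chain gene, 31 of 33, 48 of 49, 4 of 4 and 4 of 4 carried Igkv14-126. Over the 738 members with both chains assigned, 388 different pairs were seen, 309 of them in 1 cell, and Ighv11-2 with Igkv14-126 was the only pair present in all 4 libraries, in 87 cells. Next in total came Ighv1-55 with Igkv12-89, in 33, 9, 0 and 0 cells, so this pair was seen only in the libraries labelled siCont, and most of it in 1 of them. In siCont replicate 1 this pair was ahead of Ighv11-2 with Igkv14-126, at 33 against 31 cells. Ighv2-2 with Igkv3-5 followed with 10, 17, 0 and 0 cells, and Ighv1-22 with Iglv1 with 5, 18, 0 and 1. In 407 Ighd-positive cells with both chains, 356 different pairs were seen, 325 of them in 1 cell. Ighv11-2 with Igkv14-126 was the most frequent pair there too, in 13 cells (4, 9, 0 and 0 by library), and the next pair was in 5. Leading the pairs was thus not particular to the members. The junctions of the receptors were not measured, so cells of 1 clone and cells of separate origin with the same V genes cannot be told apart.

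Light chains of lambda type were also more frequent. They made up 17.6%, 18.9%, 15.6% and 13.2% of members with a light chain gene and 7.06%, 6.11%, 4.44% and 1.67% of such Ighd-positive cells. Members were higher in 4 of 4 libraries, by 11.5 percentage points ± 0.919 (SD of the differences, n = 4; two-sided exact permutation test, p = 0.125, the smallest possible). At least 2 UMIs of a switched isotype (IgG, IgA or IgE) were found in 5.05%, 8.57%, 1.12% and 9.30% of members and in 0.515%, 0.962%, 0% and 0% of Ighd-positive cells. The rule bars Ighd from members and requires at least 2 UMIs of it in Ighd-positive cells, and members were the deeper class. The switched shares of the classes are thus not independent of the rule and are given without a test. Between the groups, the lambda share of members was lower in both libraries labelled siFXR1-LNA than in both labelled siCont (exact permutation p = 0.333, the smallest that 2 against 2 libraries allow, so the test could not pass). The Ighv11-2 and switched shares of the groups overlapped (exact permutation p = 0.667 and 1).

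**Figure D3:**
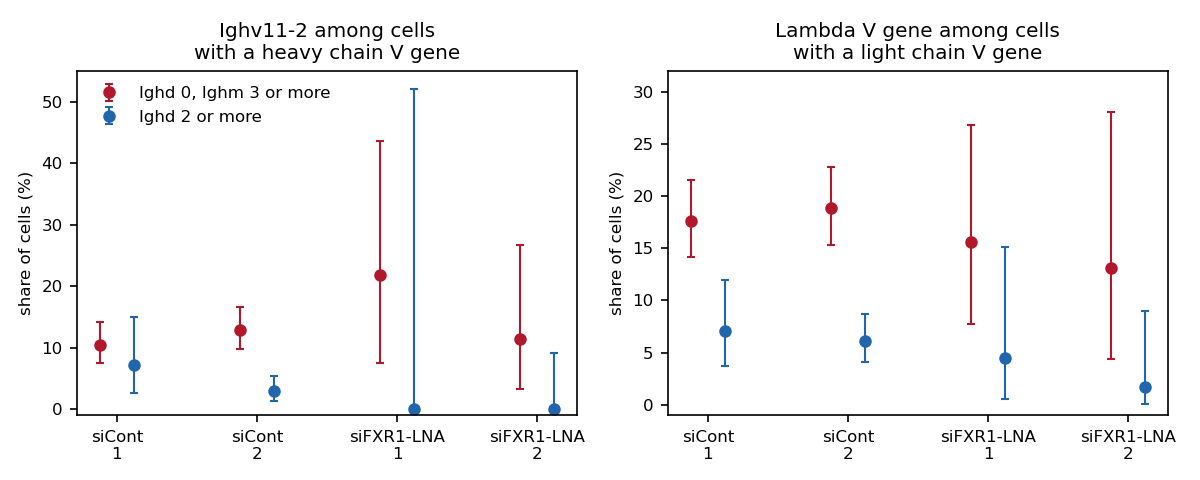
Share of cells (%) assigned Ighv11-2, left, or a lambda V gene, right, among cells with an assigned gene of that chain, per library, with exact binomial 95% intervals; red marks members and blue Ighd-positive cells. Members sit at 10.4% to 21.7% for Ighv11-2 and 13.2% to 18.9% for lambda, above the Ighd-positive cells of the same library each time.

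Summed V gene counts need care. UMIs of light chain V genes, kappa and lambda together, numbered 14350 and 26308 in members of siCont replicates 1 and 2. The kappa constant gene Igkc had 780 and 1261, a count that leaves out the lambda constant genes. Heavy chain V UMIs numbered 2878, 6817, 125 and 232 in members, against 2699, 6528, 804 and 247 of Ighm. The heavy chain counts were thus close except in siFXR1-LNA replicate 1, where V UMIs were far fewer. V genes of 1 family, and Iglc1, Iglc2 and Iglc3, are near copies of each other, among which reads may be divided. Single cells also carried some totals. In siCont replicate 2, 1 cell held 1268 of 1439 UMIs of Ighv1-22 and 1 cell held 4566 of 7232 UMIs of Iglv1, and the same held for Ighv1-19 (1199 of 1223), Ighv1-53 (600 of 733), Igkv4-57 (2858 of 2946) and Igkv4-55 (2205 of 2306). In siCont replicate 1, a single cell held 1348 of 2726 UMIs of Igkv12-89. For Ighv11-2 the highest cell of siCont replicate 2 held 26 of 542, so that gene did not rest on 1 cell.

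Members that carried Ighv11-2 or Igkv14-126 were set beside the other members of the libraries labelled siCont, with 40 and 51 such cells. Fcrl5, an Fc receptor-like protein of innate-type B cells, stood at 353 and 388 CPM in them and at 133 and 178 CPM in the others. Cd300lf, a receptor for phosphatidylserine and other lipids, stood at 196 and 155 against 70.6 and 64.1 CPM. Zbtb32 was close in both, at 141 and 118 against 113 and 132 CPM. Other genes went the other way: Spn at 15.7 and 40.8 against 51.6 and 46.1 CPM, and Anxa2 at 204 and 123 against 221 and 137. Ly6d was likewise lower in these cells, at 1530 and 1483 against 1751 and 1790 CPM. Bhlhe41 was divided, at 39.2 and 98.0 against 50.8 and 51.5 CPM. The libraries labelled siFXR1-LNA held 5 and 4 such cells, with Fcrl5 at 0 and 247 CPM against 70.2 and 43.9 CPM, too few to read an order from. These values are a description without a test, and the cells of a library share 1 pool of mice.

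Genes outside the rule were compared between members and Ighd-positive cells in sums per library with the library as a block (the quasi-likelihood test of edgeR, adjusted by Benjamini-Hochberg over 5318 genes). At an adjusted p of at most 0.05, 276 genes (5.19%) were higher and 206 (3.87%) lower in members, 9.06% in either direction. Without the library in the model neither direction held a call (0 and 0 genes, with 338 at an unadjusted p under 0.05), and DESeq2 with the block called 134 and 56. Within the libraries labelled siCont alone 437 and 422 genes were called, within those labelled siFXR1-LNA 13 and 3, over 9857 and 3076 tested genes and unequal numbers of cells. Members were also deeper than Ighd-positive cells. With cells thinned to 1500 UMIs the calls were 187 and 129 of 2850 genes. Thinning left out the cells below 1500 UMIs, 24, 17, 1 and 3 members and 27, 80, 4 and 3 Ighd-positive cells. The classes were still set on the full counts, so depth was not matched in the rule itself.

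Zbtb32, a zinc finger repressor that B-1a cells express, had the largest log2 fold change of the 5318 tested genes, immunoglobulin genes apart. Its level was 116, 131, 50.7 and 67.1 CPM in members and 21.5, 23.6, 0 and 5.74 in Ighd-positive cells, without overlap, and log2 fold change 2.67 ± 0.25 (SE), adjusted p = 3.06e-07. A UMI of it was in 25.7%, 32.8%, 13.5% and 18.6% of members, and in at most 1.47% of macrophage-type barcodes. Plac8, a small cysteine-rich protein, stood at 1321, 1538, 519 and 584 CPM in members against 508, 572, 139 and 149, higher within each library (log2 fold change 1.65 ± 0.12 (SE), adjusted p = 1.22e-08). S100a6, a calcium-binding protein, was at 1598, 1821, 1171 and 1215 against 665, 465, 789.7 and 339 CPM (log2 fold change 1.51 ± 0.16 (SE), adjusted p = 1.24e-06).

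Most of the B-1 genes that could be tested were higher in members. Of 22 genes 15 could be tested, and 10 were higher, 0 lower and 5 not called, with a median log2 fold change of 0.68, beside -0.01 over all genes tested. Summed over the 22 genes, the level was 8448, 6887, 6838 and 5358 CPM in members, 6882, 3554, 5844 and 3824 CPM in Ighd-positive cells and 8634, 6311, 7841 and 6852 CPM in all other kept barcodes, so the list as a sum was lower in members than in those barcodes in 3 of 4 libraries. Fcrl5 was at 153, 205, 66.4 and 60.4 CPM in members and 64.4, 73.9, 44.2 and 45.9 in Ighd-positive cells (log2 fold change 1.35 ± 0.18 (SE), adjusted p = 2.87e-05). Cd300lf (1.42 ± 0.22, adjusted p = 0.000137), Itgb1, the beta chain of integrins that bind matrix (0.88 ± 0.16, adjusted p = 0.000836), Ptpn22, a phosphatase that dampens receptor signalling (0.77 ± 0.17, adjusted p = 0.00428), Atxn1 (0.68 ± 0.20, adjusted p = 0.0386), Siglecg, an inhibitory lectin of the B cell receptor (0.62 ± 0.15, adjusted p = 0.0114), and Vim, an intermediate filament (0.44 ± 0.13, adjusted p = 0.0321), were the other members of the list that rose. Bhlhe40, Cd9, Itgam, Anxa2 and Lgals1 were not called, and Lgals1 was the only one with an estimate below 0 (-0.27 ± 0.09, adjusted p = 0.0582). Spn, which encodes CD43, and Il5ra, a receptor that supports B-1 cells, were too low for the filter. Spn was at 48.3, 45.4, 23.4 and 47.0 CPM in members and 9.53, 15.7, 0 and 11.5 in Ighd-positive cells, and Il5ra at 46.8, 47.0, 23.4 and 26.9 and 26.2, 23.6, 0 and 11.5, so both were higher in members in 4 of 4 libraries, without a test. Itgam, which encodes CD11b, gave 64.1, 51.2, 183 and 121 CPM in members but 284, 457, 339 and 702 in all other kept barcodes, so its level in members cannot be told apart from RNA of other cells.

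Follicular genes went the other way. Of 14 genes 12 were tested, 9 were lower, 1 was higher and 2 (Cxcr5 and S1pr1) were not called, with a median log2 fold change of -0.75. Satb1, a chromatin organizer, fell the most: 18.7, 33.4, 50.7 and 60.4 CPM in members against 78.7, 291, 234 and 178 (log2 fold change -2.49 ± 0.21 (SE), adjusted p = 5.8e-08). Bach2, a repressor that holds B cells back from plasma cell fate, was at 283, 342, 277 and 302 against 636, 879.9, 442 and 655 CPM, without overlap (log2 fold change -1.04 ± 0.13 (SE), adjusted p = 9.97e-06). Zfp318, which is needed to make the Ighd transcript, was at 30.3, 25.6, 15.6 and 80.6 against 85.8, 123, 44.2 and 80.4 CPM (log2 fold change -1.62 ± 0.24 (SE), adjusted p = 0.000103), nearly equal in siFXR1-LNA replicate 2. The rule parts the classes by Ighd, so the fall of Zfp318 is not independent of it. Ccr7 (-0.92 ± 0.16, adjusted p = 0.000708), Foxp1 (-0.66 ± 0.11, adjusted p = 0.000505), Ebf1 (-0.62 ± 0.12, adjusted p = 0.0013), Cd55 (-0.62 ± 0.17, adjusted p = 0.0248) and Icosl (-1.32 ± 0.27, adjusted p = 0.00208) fell as well. Klf2, a regulator of B cell trafficking, was the exception and rose (log2 fold change 0.75 ± 0.12 (SE), adjusted p = 0.000344). Fcer2a, the follicular marker CD23, did not pass the filter on low counts. Its level was 13.7, 6.79, 0 and 6.71 CPM in members and 105, 88.9, 6.32 and 91.9 in Ighd-positive cells, and Cr2, which encodes CD21, was at 12.2, 17.8, 3.90 and 13.4 and 81.0, 70.8, 19.0 and 103, both lower in members in 4 of 4 libraries.

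**Figure D4:**
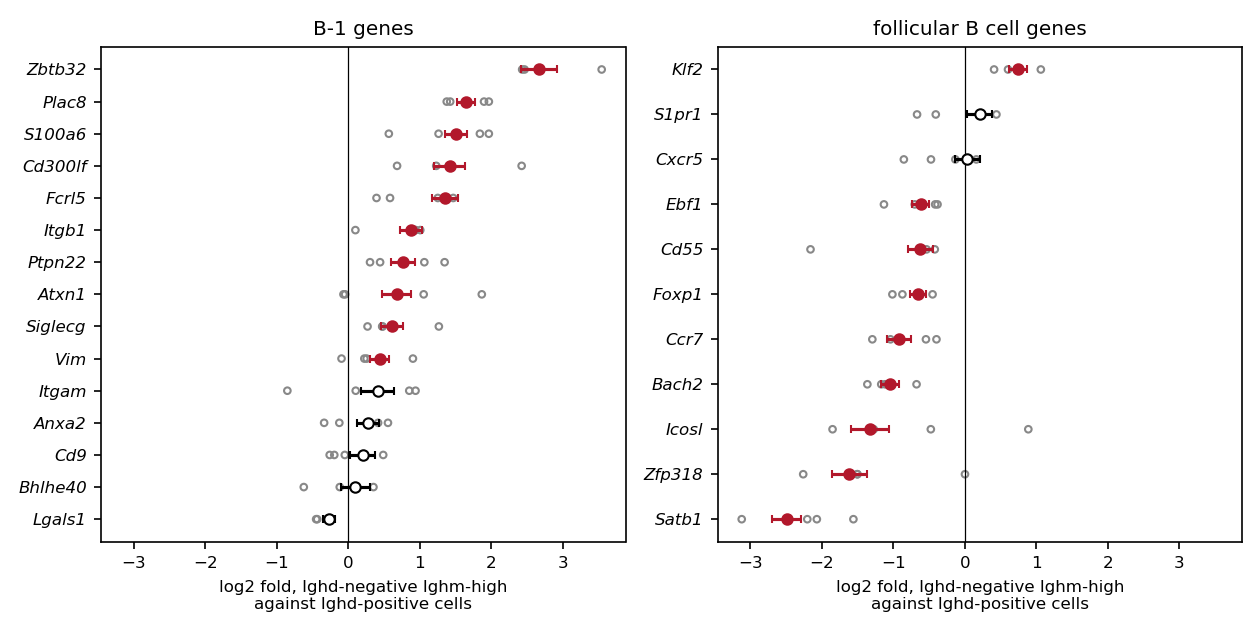
Log2 fold change of members against Ighd-positive cells for the tested genes of the B-1 list, left, and 11 of the 12 tested genes of the follicular list, right. Filled red points are estimates with an adjusted p of at most 0.05, open points those above it, bars are SE, and grey circles are the CPM ratios of single libraries where both classes had a UMI; 10 of 15 B-1 genes lie to the right and 8 of the 11 follicular genes shown to the left as calls.

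Antibody secretion genes were the next list. Of 13 plasma cell genes 8 were tested and 5 were higher, with a median of 0.79. They were Irf4, a transcription factor of plasma cell fate (1.41 ± 0.26, adjusted p = 0.000931), Txndc5 (1.06 ± 0.17, adjusted p = 0.000228), Creld2 (0.96 ± 0.25, adjusted p = 0.017) and Hsp90b1 (0.49 ± 0.15, adjusted p = 0.0419), which fold proteins in the endoplasmic reticulum, and Sec11c, a signal peptidase subunit (0.99 ± 0.15, adjusted p = 0.000138). Xbp1 was not called (0.63 ± 0.23, adjusted p = 0.0977), and Tnfrsf17 had no UMI in any member. Jchain, which joins IgM pentamers, was at 94.4, 409, 11.7 and 0 CPM in members and 11.9, 13.4, 0 and 0 in Ighd-positive cells and did not pass the filter. At least 10 UMIs of Jchain were found in 2, 4, 0 and 0 members, and 1 cell held 277 of the 783 UMIs of siCont replicate 2. Of the constant genes other than Ighm and Ighd, 4 of 10 were tested and all 4, Igkc (0.79 ± 0.16, adjusted p = 0.00186), Iglc1 (1.13 ± 0.15, adjusted p = 3.51e-05), Iglc2 (0.62 ± 0.11, adjusted p = 0.000533) and Iglc3 (0.57 ± 0.14, adjusted p = 0.00859), were higher, beside a rule that selects cells with much Ighm.

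Of the B-1 V genes, Igkv14-126 was at 671, 1024, 476 and 389 CPM in members and 243, 202, 19.0 and 0 in Ighd-positive cells, and Ighv11-2 at 186, 283, 148 and 262 against 97.7, 70.0, 0 and 0. Heavy chain V genes share a transcript with Ighm, which the rule selects for. All heavy chain V UMIs together numbered 2878, 6817, 125 and 232 in members against 455, 1888, 28 and 169 in Ighd-positive cells. Light chain V UMIs together numbered 14350, 26308, 776 and 858 against 2265, 9203, 238 and 698, from unequal numbers of cells. Igkv14-126 was also found mostly in the cells with Ighv11-2. The levels of both genes are therefore given without a test. Igkv4-91 was not called (1.11 ± 0.36, adjusted p = 0.0533). Ighv12-3 did not pass the filter, with 172 of its 194 UMIs in siCont replicate 1 in 1 cell, and Ighv11-1 had no UMI.

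Genes of B cell receptor signalling had a median of 0.01 over 21 tested, with 4 of them higher and 2 lower. Inhibitory receptors and adaptors were among the calls on both sides. Fcgr2b, the inhibitory Fc receptor, rose (log2 fold change 0.81 ± 0.14 (SE), adjusted p = 0.000737), as did Dok3 (0.54 ± 0.14, adjusted p = 0.0186) and Siglecg, whereas Cd72, an inhibitory coreceptor, fell (-0.55 ± 0.17, adjusted p = 0.0395), as did Rasgrp3, an activator of Ras (-0.78 ± 0.19, adjusted p = 0.00907). The kinases Lyn, Syk, Btk and Blk were not called.

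Among 18 regulators of the B lineage 4 were higher and 4 lower, with a median of -0.21. Pou2f2, which encodes Oct-2, rose (0.56 ± 0.13, adjusted p = 0.00783), as did Zeb2 (0.45 ± 0.14, adjusted p = 0.042), Irf4 and Klf2. Its cofactor Pou2af1 fell (-0.45 ± 0.13, adjusted p = 0.0301), as did Id3, an inhibitor of E proteins (log2 fold change -0.96 ± 0.17 (SE), adjusted p = 0.000604), Bach2 and Ebf1. Sox5, a transcription factor outside the lists, rose at 343, 519.7, 402 and 376 CPM against 186, 153, 63.2 and 80.4 (log2 fold change 1.75 ± 0.18 (SE), adjusted p = 1.44e-06), with 164, 89.8, 136 and 89.5 CPM in all other kept barcodes.

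Homing receptors were divided. Itga4, the alpha chain of the integrins VLA-4 and LPAM-1, rose from 167, 303, 183 and 189 CPM in Ighd-positive cells to 344, 417, 312 and 443 in members (log2 fold change 0.89 ± 0.14 (SE), adjusted p = 0.000227). Its partners Itgb1 and Itgb7 (0.71 ± 0.17, adjusted p = 0.0107) rose too, though Itgb7 was level in the libraries labelled siFXR1-LNA (log2 fold change -0.05 in those alone). Among the lower genes were Ccr7 and Ccr6, the receptor for Ccl20 (-0.86 ± 0.20, adjusted p = 0.00726). Of 17 MHC class II and costimulation genes 16 were tested. Small rises were called for H2-Eb1 (0.41 ± 0.09, adjusted p = 0.00273), Cd74 (0.35 ± 0.07, adjusted p = 0.00274), H2-DMb2 (0.48 ± 0.13, adjusted p = 0.0245) and H2-Ab1 (0.33 ± 0.09, adjusted p = 0.0206), and 1 fall for Icosl. Cd80, a costimulatory ligand that B-1 and memory B cells carry, was at 38.2, 44.9, 23.4 and 101 CPM in members and 7.15, 16.5, 19.0 and 11.5 in Ighd-positive cells, below the filter and without a test.

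Other lists had few calls. Of 6 tested genes of Toll-like receptor sensing Tlr7 (0.78 ± 0.24, adjusted p = 0.0489, called in 1 of 8 alternatives, with an adjusted p of 0.0385 to 0.799) and Ly86 (0.47 ± 0.13, adjusted p = 0.0177) rose, and of 12 survival genes Tnfrsf13b, the receptor TACI (0.65 ± 0.17, adjusted p = 0.0162), and Mcl1 (0.51 ± 0.14, adjusted p = 0.0192). Interferon genes had 5 rises in 10 tested, with a median of 0.53, among them Ifit3 (1.37 ± 0.24, adjusted p = 0.00055), Ifi27l2a (1.07 ± 0.14, adjusted p = 1.73e-05) and Bst2 (0.94 ± 0.17, adjusted p = 0.000961). Summed over the interferon list, the level was 3274, 4169, 441 and 537 CPM in members and 2300, 2256, 373 and 545 in Ighd-positive cells. The excess thus lay mainly in the libraries labelled siCont, and the order was reversed in siFXR1-LNA replicate 2. Mki67, a marker of cycling cells (1.13 ± 0.28, adjusted p = 0.0115), was the only call among 5 tested proliferation genes. Of 10 immediate early genes Myc rose (1.10 ± 0.28, adjusted p = 0.0147) while Dusp2 (-1.68 ± 0.32, adjusted p = 0.00141) and Cd69 (-0.80 ± 0.25, adjusted p = 0.0454) fell, and of 13 hypoxia genes Pgk1 rose (0.55 ± 0.17, adjusted p = 0.049). Vpreb3, expressed from the precursor B cell on, was the only call of 3 tested immature genes, at 56.2, 57.4, 109 and 134 CPM in members against 179, 208, 177 and 287 (log2 fold change -1.42 ± 0.17 (SE), adjusted p = 8.02e-06). None of the 2 marginal zone, 1 germinal centre and 6 Fragile X and translation genes that were tested was called.

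By the size of the change, the 10 largest rises that held in every library, immunoglobulin genes apart, were Zbtb32, Ly6c2 (1.98 ± 0.23, adjusted p = 7.14e-06), Nrp2 (1.77 ± 0.29, adjusted p = 0.0003), Gpr137b (1.75 ± 0.25, adjusted p = 7.11e-05), Sox5, Lmo7 (1.67 ± 0.24, adjusted p = 7.55e-05), Plac8, Zcwpw1 (1.61 ± 0.23, adjusted p = 5.85e-05), Ass1 (1.59 ± 0.23, adjusted p = 7.19e-05) and Fgl2 (1.56 ± 0.27, adjusted p = 0.000438). Ly6c2, a surface antigen that monocytes also carry, was at 293, 382, 191 and 101 CPM in members and 50.1, 83.3, 88.5 and 97.6 in Ighd-positive cells, so it was level in siFXR1-LNA replicate 2, and at 229, 578, 304 and 583 in all other kept barcodes. Zcwpw1, which reads histone methylation, was at 90.1, 77.8, 101 and 26.9 against 47.7, 23.6, 19.0 and 5.74 CPM and at no more than 7.38 CPM in the other kept barcodes. The 10 largest falls were Gm16341 (-2.57 ± 0.32, adjusted p = 1.36e-05), Tmem108 (-2.52 ± 0.31, adjusted p = 9.55e-06), Satb1, Gm47782 (-2.49 ± 0.25, adjusted p = 8.16e-07), Arhgap31 (-2.33 ± 0.30, adjusted p = 1.78e-05), Zfp608 (-2.31 ± 0.23, adjusted p = 8.16e-07), Pde2a (-2.09 ± 0.27, adjusted p = 1.73e-05), Neurl3 (-1.96 ± 0.22, adjusted p = 2.79e-06), Cpm (-1.94 ± 0.24, adjusted p = 9.97e-06) and Dusp2. Gm47782, an unnamed locus, was at 8.65, 21.9, 39.0 and 60.4 CPM in members and 124, 123, 120.0 and 195 in Ighd-positive cells, without overlap.

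Transcripts of other cell types were present in both classes. Summed over 9 macrophage markers, members held 1774 to 3378 CPM and Ighd-positive cells 1910 to 4651, against 6317 to 20602 in all other kept barcodes. Of 7 macrophage markers tested Apoe was higher (0.34 ± 0.10, adjusted p = 0.03) and Fn1 lower (-0.74 ± 0.19, adjusted p = 0.0122). Erythroid genes were lower in members for 4 of 5 (-0.52 ± 0.06, adjusted p = 1.06e-05 for Hbb-bs), and the mast cell genes Cpa3 (-0.70 ± 0.17, adjusted p = 0.00857) and Mcpt4 (-0.57 ± 0.17, adjusted p = 0.0441) were lower as well. The 4 tested granulocyte and 5 tested tumor or mesothelial markers were not called, and no T cell or dendritic cell marker passed the filter. Saa3, an acute-phase gene, was lower in members too (-0.68 ± 0.09, adjusted p = 1.54e-05). Their part in the results above was not tested.

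Within the members, the libraries labelled siFXR1-LNA were then compared with those labelled siCont. Of 8677 genes 16 (0.184%) were higher and 4 (0.0461%) lower in the libraries labelled siFXR1-LNA (0.23% in either direction by the same edgeR test), and 1153 genes had an unadjusted p under 0.05. DESeq2 called 82 and 49. The self-test at these counts recovered 3.06% of simulated 2-fold and 42.9% of 4-fold changes, so changes of that size can be missed at this depth, which was 273416 and 150121 UMIs in the members labelled siFXR1-LNA. Without siFXR1-LNA replicate 1 the calls were 3 and 2, and without replicate 2 they were 4 and 0; without siCont replicate 1 they were 191 and 119, and without siCont replicate 2 they were 84 and 78. The fits differ in the number of genes tested and of samples.

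The higher genes were led by Saa3, an acute-phase gene. Saa3 was at 69.2, 55.4, 6495 and 6157 CPM in members, without overlap, and log2 fold change 6.63 ± 0.23 (SE), adjusted p = 0.00017, called under each of 14 alternatives. The chemokine genes Cxcl2 (6.54 ± 0.61, adjusted p = 0.0171) and Ccl3 (5.15 ± 0.49, adjusted p = 0.0171) followed, with Chil3 (5.66 ± 0.53, adjusted p = 0.0171) and Arg1 (3.87 ± 0.31, adjusted p = 0.0163). So did the lectins Clec4e (4.48 ± 0.46, adjusted p = 0.0232) and Clec4d (3.86 ± 0.41, adjusted p = 0.0238), and Thbs1 (4.59 ± 0.54, adjusted p = 0.04), Pla2g7 (2.52 ± 0.30, adjusted p = 0.0406) and Pf4 (2.01 ± 0.25, adjusted p = 0.0474). Ero1l (3.97 ± 0.36, adjusted p = 0.0171), Ndufa4l2 (4.23 ± 0.54, adjusted p = 0.0494), Egln3 (3.66 ± 0.41, adjusted p = 0.0318) and Bnip3 (3.63 ± 0.31, adjusted p = 0.0164) are induced by low oxygen. The chemokine gene Cxcl3 had 0, 1, 16 and 17 UMIs in members (adjusted p = 0.0197) and Acod1, which makes itaconate, 1, 2, 11 and 22 (adjusted p = 0.0494), too few in the libraries labelled siCont for a fold. Bnip3, a mitochondrial protein, was at 12.2, 14.1, 195 and 141 CPM in members.

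The same genes were present at higher levels outside the members. Summed over the 16 genes, the level was 228, 233, 9301 and 8615 CPM in members, 400, 364, 13388 and 14217 CPM in Ighd-positive cells and 1997, 3578, 27689 and 43947 CPM in all other kept barcodes. Each of the 16 was higher in the other barcodes than in members in each library. In Ighd-positive cells all 16 also stood higher in both libraries labelled siFXR1-LNA than in both labelled siCont. Of the 8677 genes tested in members 23.9% stood so in members, and the share over all genes was not counted in Ighd-positive cells. Saa3, for instance, was at 646, 806, 21488 and 33237 CPM in the other barcodes. Macrophage markers, called for 0 of 9 genes, had positive estimates for all 9, and their summed level in members was 2380, 1774, 3325 and 3378 CPM. Granulocyte markers summed to 134, 1889, 2428 and 5023 CPM. The part of RNA from other cells in these differences was not tested.

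Lower in the libraries labelled siFXR1-LNA were 3 interferon-induced genes and 1 V gene. Ifi27l2a was at 1779, 2421, 117 and 128 CPM in members (log2 fold change -4.15 ± 0.29 (SE), adjusted p = 0.00821). Slfn5, a Schlafen family gene, was at 130.4, 145, 15.6 and 13.4 CPM (log2 fold change -3.25 ± 0.37 (SE), adjusted p = 0.0335), and Ifi213, of the family that senses DNA in the nucleus, had 124, 223, 1 and 1 UMIs (adjusted p = 0.0447). Phf11b (-2.80 ± 0.38, adjusted p = 0.0602) and Rnf213 (-2.12 ± 0.29, adjusted p = 0.0602), which interferon also induces, did not pass. Ighv2-2 had 242, 427, 0 and 0 UMIs in members, in 22, 33, 0 and 0 cells, so it rested on a small number of cells in the libraries labelled siCont.

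The whole interferon list lay on that side. Of 14 tested genes 1, Ifi27l2a, was called, but all 14 had levels in both libraries labelled siFXR1-LNA below both labelled siCont, where 22.7% of the 8677 genes did so. The median log2 fold change was -3.13, and -2.44 with the 2 genes at 0 in both libraries (Ifit1 and Oasl1) set to the bound of 3 counts over the group, beside -0.02 over all genes. Irf7, a transcription factor that drives interferon production, had 170, 291, 3 and 0 UMIs (adjusted p = 0.0604) and Ifit3 114, 244, 2 and 1 (adjusted p = 0.0608), neither past the threshold. Ighd-positive cells showed the same order, with Ifi27l2a at 944, 1032, 63.2 and 115 CPM, and all other kept barcodes too, at 1388, 1725, 74.2 and 194 CPM. With the class by group test described below, 0 of 12 tested interferon genes were called. The same test on simulated data called 11.2% of 2-fold and 53.3% of 4-fold changes, in genes drawn over all tested levels. Interferon genes had few UMIs in the libraries labelled siFXR1-LNA, so for them these rates may be lower.

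Hypoxia genes lay on the other side. Of 13 tested genes 2 were called, 12 had levels in both libraries labelled siFXR1-LNA above both labelled siCont, where 23.9% of all tested genes did so, and the median was 1.14. Vegfa, the angiogenic growth factor, was at 11.5, 1.57, 293 and 101 CPM but did not pass (log2 fold change 5.03 ± 0.76 (SE), adjusted p = 0.063). All other kept barcodes had 20.8, 17.0, 477 and 233 CPM.

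**Figure D5:**
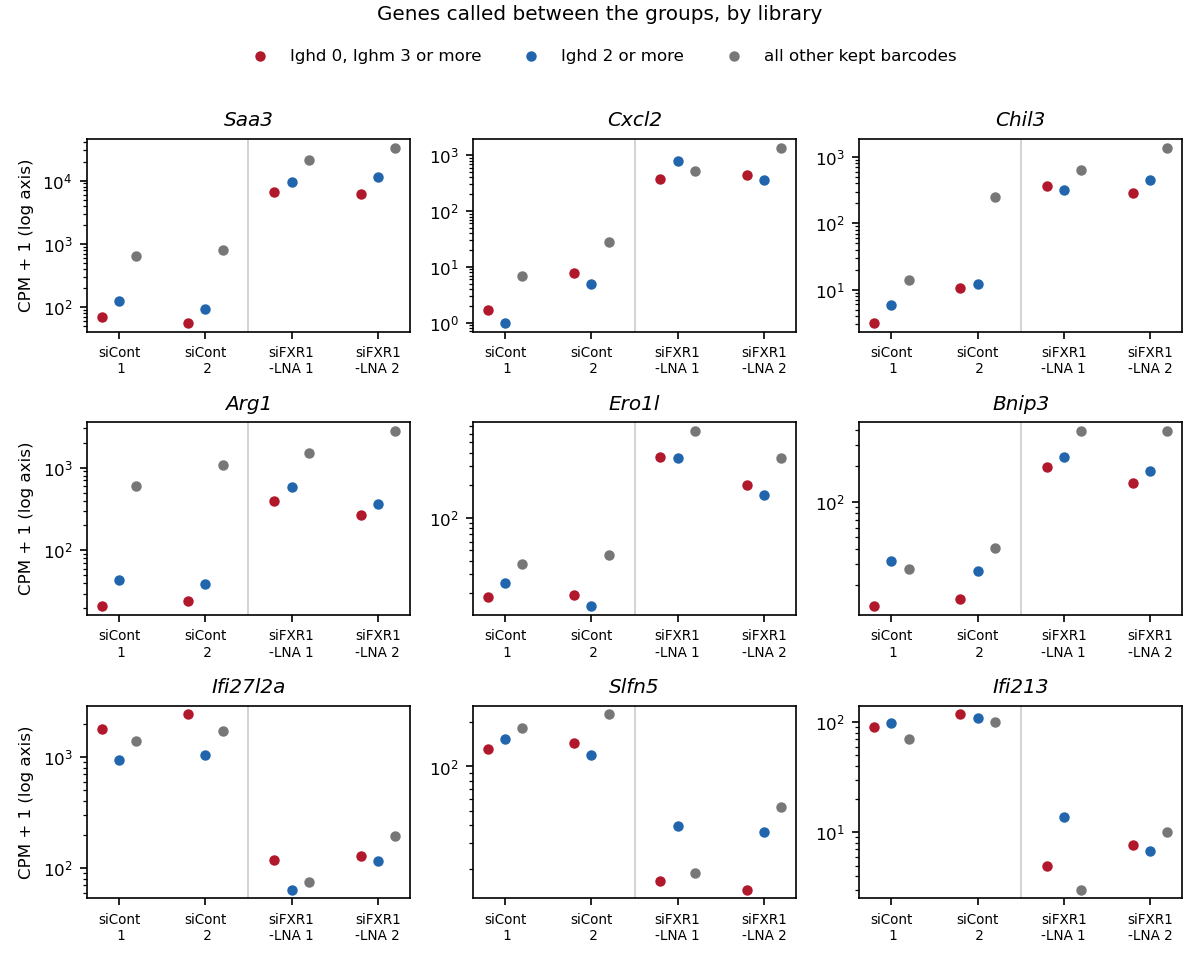
CPM plus 1 (log axis) of 9 genes called between the groups in members, per library, in members (red), Ighd-positive cells (blue) and all other kept barcodes (grey). Saa3, Cxcl2, Chil3, Arg1, Ero1l and Bnip3 are higher and Ifi27l2a, Slfn5 and Ifi213 lower in the libraries labelled siFXR1-LNA in all 3 sets.

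Genes that mark the members had no call between the groups. Of 20 tested B-1 genes 0 passed, 10 with an estimate above and 10 below 0, and the median was 0.00. Zbtb32 was at 116, 131, 50.7 and 67.1 CPM (log2 fold change -1.14 ± 0.30 (SE), adjusted p = 0.204) and Plac8 at 1321, 1538, 519 and 584 CPM (log2 fold change -1.42 ± 0.22 (SE), adjusted p = 0.0707), both lower in each library labelled siFXR1-LNA than in each labelled siCont. Follicular genes (0 of 13 called, median -0.55), plasma cell genes (0 of 11, -0.65), receptor signalling (0 of 22, -0.14) and MHC class II and costimulation (0 of 17, -0.35) had no call either. Fxr1 itself gave 0.53 ± 0.28, adjusted p = 0.464. A p above the threshold does not show that these levels were equal.

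Whether the difference between the groups was itself another one in members than in Ighd-positive cells was tested as the interaction of class and group, with the library as a block. Of 6626 genes 6 (0.0906%) passed in 1 direction and 0 in the other, with 411 at an unadjusted p under 0.05, and DESeq2 called 0 (64 at an unadjusted p under 0.05). Of the 4 tested B-1 V genes 2 were among the calls, Ighv11-2 and Igkv14-126 (adjusted p = 0.0414 each), and the others were Ighv7-3, Igkv1-133, Igkv3-12 and Zfpm2. As stated above, the levels of Ighv11-2 and Igkv14-126 in the classes are not independent of the rule. In Ighd-positive cells labelled siFXR1-LNA, Ighv11-2 had 0 and 0 UMIs and Igkv14-126 had 3 and 0, over 63 and 65 cells. No conclusion on the B-1 V genes is drawn from these 2 calls. No gene of the B-1 gene list without V genes, or of the follicular, interferon, hypoxia or macrophage lists, was called.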

How the data were processed

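Ascites cells of 4 libraries were measured by droplet single-cell RNA sequencing. The authors deposited raw UMI counts per gene (32285 genes) and barcode, made with Cell Ranger 7.0.0 on mm10 according to the submitters' processing notes. The labels and the methods differ on the version of the kit and of Cell Ranger, and the methods leave out 1 siFXR1-LNA replicate with fewer reads without numbering it, so all 4 libraries were used here. Red cells had been lysed before loading.

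From the counts, a barcode was kept if it held 500 to 4800 genes and no more than 15% of its UMIs were mitochondrial. Members and Ighd-positive cells were chosen as stated, and their counts were summed per library and class. CPM leaves the 10 hemoglobin genes out of the total. Sums were tested with edgeR 4.0.16 in R 4.3.3 (TMM scaling, low genes removed by filterByExpr, the quasi-likelihood test and p-values adjusted by Benjamini-Hochberg, with calls at 0.05). The library was a block for the comparison of classes and for the interaction, and not for the groups. The SE is the log2 fold change divided by the square root of its F. The genes of the rule and 3 proposed markers (Mzb1, Ly6d and Bhlhe41) were given no test against Ighd-positive cells, since the rule or the proposal used these data. Shares were compared by two-sided exact permutation tests. The V gene calls were set after seeing the data. No doublets were removed. Scrublet called too few cells to be used, so leaving out the top 5% of its scores was an alternative, beside DESeq2 1.42.0, other limits on cells and counts, thinning to 1500 UMIs and leaving out each library.

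Named genes were those of the lists, the 10 largest rises and falls past the threshold in every library pair or without overlap of the groups, the 5 with the lowest p in each direction where fewer than 5 passed, and the V genes with the most UMIs. Some genes that the rule names are counted in their lists but not reported here. The members and lists were chosen with earlier results of these data known. The model was tested on simulated data: changes of 2-fold were called in 83.7% between classes (5051 genes) and 3.06% between groups (8471 genes), changes of 4-fold in 100% and 42.9%. Nothing states that the 2 pools of a group were prepared separately, so p-values measure the spread between these libraries, which may be technical.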

Additional observations from a re-analysis of the deposited data

Results flagged for a closer look

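For 6 genes the difference between the libraries labelled siFXR1-LNA and siCont was tested to be another one in members than in Ighd-positive cells (interaction term in edgeR, adjusted by Benjamini-Hochberg over 6626 genes). Of these, 5 are V genes. The adjusted p was 0.0414 for Ighv11-2, at 186, 283, 148 and 262 CPM in members and 97.7, 70.0, 0 and 0 in Ighd-positive cells. For its usual partner Igkv14-126 it was 0.0414, at 671, 1024, 476 and 389 and 243, 202, 19.0 and 0 CPM. Ighv7-3 had an adjusted p of 0.0414, at 132, 86.2, 23.4 and 228 CPM in members and 50.1, 42.5, 0 and 0 in Ighd-positive cells. Igkv1-133 gave 0.00833, at 5.04, 1.57, 0 and 134 and 42.9, 16.5, 0 and 0 CPM, and all of its UMIs in members of the libraries labelled siFXR1-LNA came from replicate 2. Igkv3-12 gave 0.0386, at 25.2, 39.7, 62.4 and 47.0 and 112, 76.3, 0 and 0 CPM. In 4 of these 5 V genes Ighd-positive cells of both libraries labelled siFXR1-LNA had no UMI, and those sums held 63 and 65 cells, so no fold is given. The rule selects members for Ighm, whose transcript carries the heavy chain V gene, and so the levels of Ighv11-2 and Ighv7-3 are not independent of it. The same holds for Igkv14-126, which was found mostly in the cells with Ighv11-2. Zfpm2, a cofactor of GATA factors, had an adjusted p of 0.0414, at 68.4, 4.70, 425 and 26.9 CPM in members and 222, 12.6, 360.1 and 28.7 in Ighd-positive cells, and its level was high in replicate 1 of either group. DESeq2 called 0 of the 6626 genes, with 64 at an unadjusted p under 0.05.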

How the results depend on the processing

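Counts are given as higher and lower genes. Between members and Ighd-positive cells (276 and 206), the calls were 156 and 112 with at least 1000 genes per cell, 134 and 56 with DESeq2, 187 and 129 after thinning, 437 and 422 in the libraries labelled siCont alone, 13 and 3 in those labelled siFXR1-LNA alone, and 0 and 0 with no library block. With other cell type markers also barred they were 59 and 36, over 3 libraries, since siFXR1-LNA replicate 2 kept 1 member and replicate 1 kept 10. Leaving out 1 library gave 69 to 364 and 36 to 251, with 103 and 78 without siCont replicate 1 and 69 and 36 without siCont replicate 2. Of the named genes only Itgb7 turned its direction, to -0.046 in the libraries labelled siFXR1-LNA alone. Among the calls that held least often were those of Vim, Atxn1 and H2-Ab1 (8 of 16), Cd55, Hsp90b1, Pou2af1 and Apoe (7 of 16), Cd72, Zeb2 and Pgk1 (6 of 16), Cd69 (5 of 10) and Tlr7 (1 of 8). Between the groups (16 and 4), they were 82 and 49 with DESeq2, 30 and 19 with at least 6 UMIs of Ighm, 324 and 271 with no filter on low counts, 79 and 170 with other markers barred (3 libraries), 6 and 1 after thinning, 36 and 12 without immunoglobulin genes, and 22 and 9 without the top Scrublet scores. Leaving out 1 library gave 3 to 191 and 0 to 119. With the replicate number as a block they were 250 and 179, and the block lost no call among the 20. The deviations of same-numbered samples correlated at 0.235 over 8677 genes, but the labels do not say what the number marks and there are 2 pairs, so the samples share only a number. For the interaction (6 and 0), they were 0 and 0 with at least 1000 genes per cell and with DESeq2, 1 and 0 with at least 6 UMIs of Ighm, 14 and 8 with no filter, 3 and 8 with other markers barred, 2 and 0 after thinning, 1 and 0 without hemoglobin genes (an alternative added after seeing the data), 4 and 4 without immunoglobulin genes, and 12 and 7 without the top Scrublet scores. Leaving out 1 library gave 5 to 18 and 1 to 18. The cause was not tested. The difference in the share of B cells stayed below 0 under each alternative, from -13.7 to -3.19 points, and from -11.5 to -0.614 without 1 library. The excess of Ighv11-2 was 8.24 to 14.4 points without 1 library. With V genes called from at least 5 UMIs, an alternative added after seeing the data, Ighv11-2 was 25 of 156, 43 of 254, 2 of 6 and 4 of 18 in members and 3 of 21, 6 of 136, 0 of 0 and 0 of 9 in Ighd-positive cells. The members labelled siFXR1-LNA numbered 89 and 43, which limits every comparison of the groups.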
